A study of Mus musculus with 4 samples.

Results

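Transcripts of cytotoxic lymphocytes were followed in sorted muscle satellite cells of young and aged mice. The set holds 10 genes, the granzymes Gzma, Gzmb, Gzmk and Gzmm, the granule proteins Prf1 and Nkg7, the receptors Klrd1, Klrk1 and Ncr1, and the transcription factor Eomes. Its members are the probe sets that the platform annotation assigns to exactly 1 of these genes, which gave 12 of 45037 probe sets once controls were set aside, or 10 of 18193 genes. Prf1 and Eomes had 2 probe sets each and the other 8 genes had 1, so for those 8 no second probe set could be set beside the first. The genes were picked by role with their differences between ages already known, so the values by age are given below as a description without a test.

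The arrays came from syndecan-4-sorted satellite cells of the hindlimb muscle of C57BL/6J mice, with 2 pools of young adults (3 to 6 months) and 2 pools of aged adults (20 to 25 months). No other treatment or allele is named for either age. The RNA of each pool was put on 1 array, and a pool held the cells of 4 to 8 mice by the series text or 6 to 8 by the sample text. The spread between pools therefore averages over mice, and the sort rests on syndecan-4 alone. These are bulk samples, so fewer cells of a type and less RNA per cell cannot be told apart.

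Cytotoxic lymphocytes, the natural killer (NK) cells and cytotoxic T cells, kill target cells by releasing granules. Perforin, the product of Prf1, opens pores in the target membrane, and the granzymes are serine proteases that enter the target and cleave its proteins. Granzyme B cuts after aspartate and triggers caspases, while granzymes A and K cut after basic residues. Klrd1 encodes CD94, which pairs with NKG2 chains to read a non-classical MHC molecule, Klrk1 encodes NKG2D, which reads stress-induced ligands, and Ncr1 encodes the NK receptor NKp46. Eomes is a T-box factor that, with its relative Tbx21, drives the cytotoxic programme. Lymphocytes are scarce in resting limb muscle and enter it after injury.

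Gzma and Gzmk are neighbours on chromosome 13, with no annotated protein-coding gene between them, and Gzmb lies on chromosome 14 beside further granzyme genes. The 250 bases before the start of these 3 genes are shown because the granzymes differed most among themselves. They are RefSeq sequences of GRCm38.p6 in the direction of the gene, all from the minus strand, at chr13:113100982-113101231 for Gzma, chr13:113180966-113181215 for Gzmk and chr14:56262335-56262584 for Gzmb. Capitals mark a T-box core (GGTGTGA), a RUNX core (TGTGGT) or a TATA box (TATATAA), each searched on both strands, and no marked letters overlap.
Gzma: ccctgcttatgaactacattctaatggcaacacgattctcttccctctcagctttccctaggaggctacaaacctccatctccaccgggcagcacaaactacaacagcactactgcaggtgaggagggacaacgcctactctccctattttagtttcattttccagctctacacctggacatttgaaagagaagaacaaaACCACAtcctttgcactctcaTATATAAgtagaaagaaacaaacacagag
Gzmk: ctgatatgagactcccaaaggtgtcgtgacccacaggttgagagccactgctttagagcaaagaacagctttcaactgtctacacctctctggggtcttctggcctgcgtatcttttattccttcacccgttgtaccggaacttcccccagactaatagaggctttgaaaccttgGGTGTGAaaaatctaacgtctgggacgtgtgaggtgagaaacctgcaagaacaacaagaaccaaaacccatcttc
Gzmb: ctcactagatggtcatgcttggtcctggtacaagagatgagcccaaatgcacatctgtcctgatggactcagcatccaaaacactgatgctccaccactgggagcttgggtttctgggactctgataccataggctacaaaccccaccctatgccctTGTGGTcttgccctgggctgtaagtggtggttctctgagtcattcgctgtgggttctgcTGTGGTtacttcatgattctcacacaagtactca
The Gzma window held a TATA box from base -29 to -23 and a RUNX core from -50 to -45, counted back from the gene's start, and no T-box core. The Gzmk window held a T-box core from -75 to -69 and neither of the other motifs, and the Gzmb window held RUNX cores from -93 to -88 and from -34 to -29. Of 32851 windows of this length in the RefSeq table, 3.33% held the T-box core, 14.0% the RUNX core and 3.04% the TATA box. Windows were at hand for 9 of the 10 genes, all but Klrd1. The T-box core was found for 3 of these genes, Gzmk, Nkg7 and Gzmm (in 1 of its 2 windows), the RUNX core for 7 and the TATA box for 2, Gzma and Eomes. A match of letters is a description and shows no binding.

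The deposited values are taken as log2, although the base and the direction are not stated in the sources used here, and each is relative to the median of its probe set over the 4 arrays. A value of 0 is thus that median and not an absence, and no level of 1 gene can be set against that of another. Array medians lay between -0.07 and 0.05. Over all genes, limma called 0 of 18193 at an adjusted p under 0.05, and an unadjusted p under 0.05 was reached by 518 genes with the aged pools higher and 1127 with them lower (281 higher without young replicate 2). All 15 fibre markers measured were lower with age (median -2.82), with array medians of 1.26 and 1.37 in young and -1.36 and -1.30 in aged pools. Of 13 satellite cell markers 9 were higher and 4 lower in aged pools, with a median of 0.10 (0.18 to 0.52 with 1 array left out). Among them Pax7 stood at 2.31 ± 0.36 (SE of the limma fit, n = 2 pools per age, as for every ± below; adjusted p = 0.150) and Sdc4, the gene of the sorted protein, at 1.22 ± 0.53 (adjusted p = 0.593). Over all genes the most positive difference was that of Xist, a transcript of the inactive X chromosome, at 6.16. The part of fibre RNA and that of the sex of the mice in the values below were not tested.

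Among the granzymes, Gzma was far lower in aged cells, while Gzmb and Gzmm were slightly higher and Gzmk hardly differed. Gzma, which encodes a tryptase, had values of 1.51 and 2.70 in young 1 and young 2 and of -2.09 and -1.51 in aged 1 and aged 2. Both young pools were high and both aged pools low, with 3.01 log2 units between the lowest young and the highest aged value. The difference was -3.90 ± 0.53, or 15.0-fold lower, and it ranked 26th from the most negative of 18193 genes. With 1 array left out it ran from -4.50 to -3.31. Its neighbour Gzmk, which encodes another tryptase, stood at -0.49 and 0.54 in the young pools and at -0.13 and 0.13 in the aged pools. The ages overlapped, and the difference of -0.03 ± 0.47 changed sign with the young pool left out (-0.54 without young 1, 0.49 without young 2).

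Gzmb, the caspase-activating granzyme, stood at -0.39 and -0.26 in young 1 and young 2 and at 0.26 and 0.42 in aged 1 and aged 2. The pools of each age lay close together and the ages did not overlap, with a difference of 0.67 ± 0.36 (1.59-fold). Gzmm, a granzyme of NK cells that cuts after methionine, stood at -0.11 and -0.25 in young and at 0.79 and 0.11 in aged pools, with a difference of 0.64 ± 0.41. Its ages did not overlap either, but aged 1 was well above aged 2, and the difference was 0.30 without aged 1 and 0.98 without aged 2. The other 6 granzyme genes of the mouse chromosome 14 cluster, Gzmc to Gzmg and Gzmn, differed by -0.36 to 0.57 with a median of -0.08, against 0.05 over all genes. Their median was 0.34 without young 2, -0.38 without young 1 and 0.08 without aged 1, and 1 of the 6, Gzmn (0.57 ± 0.38), had aged pools above both young pools, which 19.9% of all genes had.

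**Figure D1:**
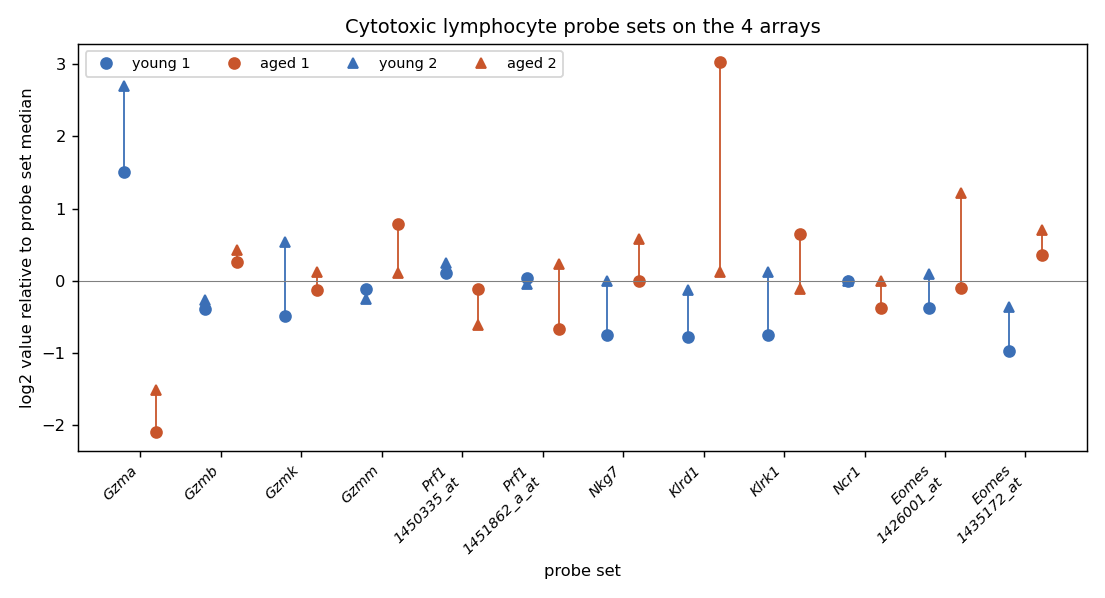
Log2 value of each of the 12 probe sets (x axis) relative to its median over the 4 arrays (y axis), with young pools in blue, aged pools in orange, circles for pools numbered 1 and triangles for pools numbered 2. Gzma lies between 1.51 and 2.70 in young and between -2.09 and -1.51 in aged pools, and Klrd1 reaches 3.02 in aged 1 and 0.13 in aged 2.

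The ages did not overlap in 7 of the 12 probe sets, 5 with both aged pools above both young pools and 2 with both below. Over all probe sets 19.0% lay with the aged pools above and 14.8% with them below. Counted by gene, 5 of 10 lay above, where 19.9% of all genes did, and 2 of 10 below, where 16.9% did. Only Gzma and Klrd1 differed by at least 1 log2 unit, against 14.6% of all genes. Since the genes were chosen with this contrast known, nothing is read from these shares.

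Prf1 was slightly lower and Nkg7 slightly higher in aged cells. The probe sets of Prf1 stood at 0.11 and 0.25 in young and -0.11 and -0.60 in aged pools for 1450335_at, and at 0.05 and -0.05 in young and -0.66 and 0.23 in aged pools for 1451862_a_at. The aged pools were below the young pools on the former and spanned them on the latter, with differences of -0.54 ± 0.42 and -0.22 ± 0.48. Averaged over both, Prf1 was at -0.38 ± 0.36. The value of 1451862_a_at turned to 0.23 without aged 1. Nkg7, a membrane protein of cytotoxic granules, stood at -0.75 and -0.0042 in young and at 0.0042 and 0.58 in aged pools. The ages were apart by only 0.0085, and the difference of 0.67 ± 0.45 was 0.30 without young 1, 1.04 without young 2 and 0.38 without aged 2.

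Of the 3 receptors, Klrd1 was higher in aged cells through 1 pool, Klrk1 overlapped between ages, and Ncr1 gave almost the same value on 3 arrays. Klrd1 stood at -0.77 and -0.13 in young 1 and young 2, at 3.02 in aged 1 and at 0.13 in aged 2. Aged 1 alone was high, and aged 2 lay 0.26 above young 2. The difference of 2.03 ± 0.96 (4.08-fold) became 0.58 without aged 1 and 3.48 without aged 2. Klrk1 stood at -0.75 and 0.12 in young and at 0.65 and -0.12 in aged pools, a difference of 0.58 ± 0.50 (0.15 without young 1, 1.01 without young 2, 0.20 without aged 1). Ncr1, the most NK-restricted of the receptors, had values within 0.00074 of each other on young 1, young 2 and aged 2 and -0.38 on aged 1. Its difference of -0.19 ± 0.37 vanished without aged 1 (-0.00037), and among all probe sets 0.420% had 3 arrays within 0.01 of each other.

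Klrd1 and Klrk1 are neighbours in the NK gene complex of chromosome 6, which also holds the Klrb, Klrc and Klra receptor genes and the Clec2 genes, some of which encode ligands of the Klrb1 receptors. Taken from the first to the last Klr gene of that stretch in the GRCm38.p6 order, 30 genes other than Klrd1 and Klrk1 were measured. Of these 21 were higher and 9 lower in aged cells, with a median of 0.11 against 0.05 over all genes, and the ages did not overlap in 4 above and 1 below, against 19.9% and 16.9% of all genes. Klra2, a receptor of the Ly49 family, resembled Klrd1, with -0.62 and 0.09 in young pools, 3.15 in aged 1 and -0.09 in aged 2. Klrc1, which encodes a partner chain of CD94, stood at 0.98 in aged 1 against -0.11 in aged 2, a difference between ages of 0.40 ± 0.52 (adjusted p = 0.914). The extreme of the stretch was the lymphocyte activation marker Cd69 (3.41 ± 1.10, adjusted p = 0.423), named like Klrc1 after its value was seen.

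**Figure D2:**
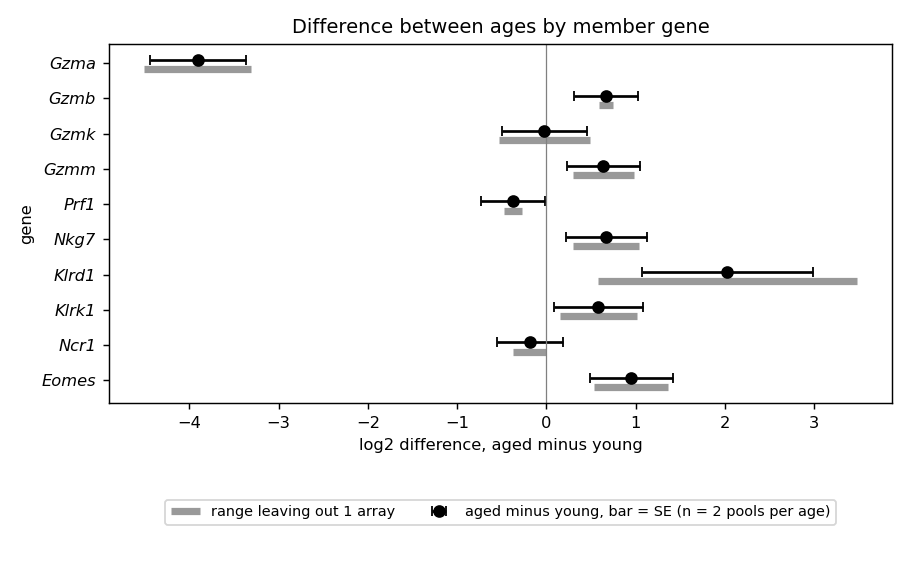
Difference between aged and young cells for the 10 genes (log2, x axis), with points for the fitted value, black bars for its SE (n = 2 pools per age) and grey bars for the range with 1 array left out. The grey bar of Gzma runs from -4.50 to -3.31, that of Klrd1 from 0.58 to 3.48, and that of Gzmk spans 0.

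Eomes was higher in aged cells on both of its probe sets. On 1435172_at it stood at -0.97 and -0.36 in young and at 0.36 and 0.71 in aged pools, with no overlap, and on 1426001_at at -0.38 and 0.10 in young and at -0.10 and 1.22 in aged pools, with overlap. The differences were 1.20 ± 0.45 and 0.70 ± 0.60, and that of their mean was 0.95 ± 0.46 (1.93-fold, 0.53 without aged 2). On 1426001_at the difference was 0.04 without aged 2. Tbx21, the T-box factor that acts beside Eomes, went with the pool number rather than with age, at 1.02 and -1.63 in young and 1.79 and -1.02 in aged pools (0.68 ± 1.21, adjusted p = 0.943).

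Other transcription factors of cytotoxic lineages were mostly slightly higher. Of 13 measured, 9 were higher and 4 lower, with a median of 0.34 (0.12 without aged 1, 0.19 without young 2 and 0.68 with the probe set of the largest SD), and 0 passed the adjusted threshold with limma. At an unadjusted p under 0.05 there were 0 higher and 1 lower, against 2.85% and 6.19% of all genes. The lower one was Zbtb16, which encodes PLZF, a factor of innate-like lymphocytes, at -1.91 ± 0.38 (adjusted p = 0.196). Id2, needed for innate lymphoid cells, stood at 0.98 ± 0.45, Ets1 at 0.95 ± 0.39 and Prdm1, the gene of Blimp-1, at 0.96 ± 0.47.

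The gaps between pools of the same age, which played no part in the choice of genes, put these differences in scale. The gap between the young pools had a median size of 0.593 over the 10 genes and 0.459 over all genes, and that between the aged pools 0.580 and 0.479. The gap between aged pools was widest in Klrd1, at 2.90. In 4 of the 10 genes, Gzma, Gzmb, Prf1 and Eomes, the difference between ages was larger than either gap within an age, against 24.8% of all genes. For Prf1 and Eomes this is the mean of 2 probe sets. It did not hold on 1451862_a_at of Prf1 (difference -0.22, gap between aged pools 0.89) or on 1426001_at of Eomes (0.70 and 1.32). In Gzmm, Nkg7, Klrd1, Klrk1, Ncr1 and Gzmk the difference was no larger than the wider of these gaps. The differences between ages were known when the genes were chosen, so nothing is read from the share of 4 in 10.

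**Figure D3:**
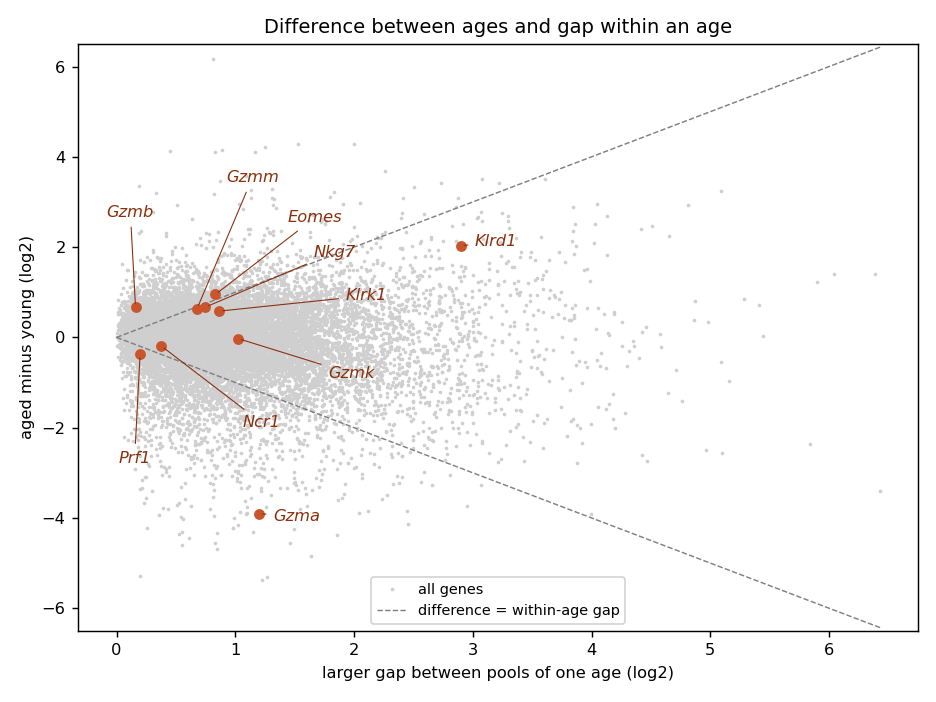
Difference between ages (log2, y axis) against the wider of the gaps between the pools of 1 age (log2, x axis) for all 18193 genes (grey) and the 10 cytotoxic genes (orange). Points outside the dashed lines differ by more between ages than within them. Gzma lies far below the lower line and Klrd1 inside the lines.

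The genes most like Gzma over the 4 arrays included sarcomere genes and no other cytotoxic gene. By Euclidean distance between values centred on each gene's mean, the nearest was Ldb3, a Z-disc protein, at 0.386, with 1.63 and 2.67 in young and -1.76 and -1.70 in aged pools. Next came Trip6 (0.658), Nkiras1 (0.808), Tcap, the titin cap (0.837), and Mlf1 (0.854). Their differences between ages ran from -3.75 for Nkiras1 to -3.29 for Mlf1, beside -3.88 for Ldb3. The nearest of the other cytotoxic genes, Prf1, lay at 3.64 from Gzma and the farthest, Klrd1, at 6.43. The values were not scaled, so a gene with a difference between ages far from that of Gzma could not lie near it. Nearest to Klrd1 were Enkur (0.235), Rbp4 (0.287), Syne3 (0.320), the integrin Itgb8 (0.329) and Klra2 (0.339), all of them high in aged 1. With 4 arrays such likeness is a description and says nothing of shared control.

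Genes around the cytotoxic programme differed in both directions, and none passed the adjusted threshold. Over 10 lists (granule release, effector cytokines, receptors, adaptors, ligands, transcription factors, cytokine receptors and others), 110 of 137 genes were measured, with 68 higher (61.8%, against 53.8% of all genes), 42 lower and a median of 0.18, against 0.05 over all genes. With limma 12 were higher and 2 lower at an unadjusted p under 0.05 (5 and 4 without young replicate 2), against 2.85% and 6.19% of all genes, and 0 passed the adjusted threshold. Of the death ligands and effector cytokines 9 of 10 were higher, and their median was 0.85 (0.53 without young 1). The chemokine Ccl5, which cytotoxic cells store and secrete, stood at -1.84 and -2.29 in young and at 2.28 and 1.84 in aged pools, a difference of 4.12 ± 0.40 (adjusted p = 0.0998), opposite to that of Gzma. Ccl3 (1.25 ± 0.39), the lymphotoxin gene Lta (1.00 ± 0.40) and the death ligand gene Fasl (0.79 ± 0.43) followed.

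Genes of granule packing and release lay on both sides of 0. Of 14 measured, 8 were higher and 6 lower, with a median of 0.29 (0.15 without young 1, and 0.05 with the probe set of the largest SD or once the _x_at and _s_at probe sets were dropped). Srgn, the proteoglycan core that holds granzymes in the granule, was at 0.95 ± 0.38, Lyst, the regulator of lysosome size, at 1.53 ± 0.40 and Vamp7, a vesicle fusion protein, at 1.34 ± 0.61 (0.52 to 2.17 with 1 array left out). Ctsc, the cathepsin that activates granzymes by removing their propeptide, was at -0.66 ± 0.39, with aged pools below young pools. Their adjusted p-values ran from 0.306 for Lyst to 0.752 for Ctsc.

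Other NK receptors and the ligands had small median differences, while adaptors and kinases were mostly higher. Of 18 other NK receptors measured out of 30 listed, 12 were higher and 6 lower. Their median was 0.13 (-0.04 without aged 1, 0.44 without aged 2, 0.04 without young 1, 0.32 without young 2). With limma 0 of them had an unadjusted p under 0.05, against 2.85% of all genes higher and 6.19% lower. Beside Klra2 (1.79 ± 1.06), the adhesion receptor Cd226 stood at 0.77 ± 0.53, Crtam, another receptor of nectin-like ligands, at 0.73 ± 0.44 and Cd160 at 0.46 ± 0.36. Among 11 adaptors and kinases, 9 were higher, with a median of 0.39 (0.18 without aged 1), led by Hcst, which encodes the DAP10 adaptor of NKG2D, at 1.13 ± 0.45 (adjusted p = 0.544). The Fc receptor gene Fcgr3 stood at -0.82 ± 0.36. Of 10 ligands measured, 6 were higher and 4 lower (median 0.08, -0.14 without aged 2, -0.19 without young 2, 0.19 without aged 1, 0.31 without young 1, and -0.20 once the _x_at and _s_at probe sets were dropped), with B2m, the light chain of MHC class I, at 0.85 ± 0.36.

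Several receptor chains for cytokines that sustain cytotoxic cells were higher in aged cells, while the list as a whole was mixed. Of 14 genes of the IL-2, IL-15, IL-12 and IL-18 axis 8 were higher and 6 lower, with a median of 0.60 (0.36 without aged 2, 0.37 without young 1). Il2rb, the chain shared by the IL-2 and IL-15 receptors, stood at -0.64 and -0.57 in young and at 0.81 and 0.63 in aged pools, a difference of 1.33 ± 0.36 (adjusted p = 0.325). The IL-18 receptor chains Il18r1 (2.33 ± 0.86, adjusted p = 0.495) and Il18rap (1.30 ± 0.56, adjusted p = 0.592) and Il21r (1.32 ± 0.49, adjusted p = 0.496) also had ages that did not overlap. Of the 14 genes, 7 had both aged pools above both young pools and 2 had them below, against 19.9% and 16.9% of all genes. The 2 below were Il15 (-0.51 ± 0.39) and Il18 (-1.26 ± 0.83, from -2.51 to -0.01 with 1 array left out). Without 1 array Il18r1 ran from 1.20 to 3.45, and young 1 was its lowest pool at -2.53.

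**Figure D4:**
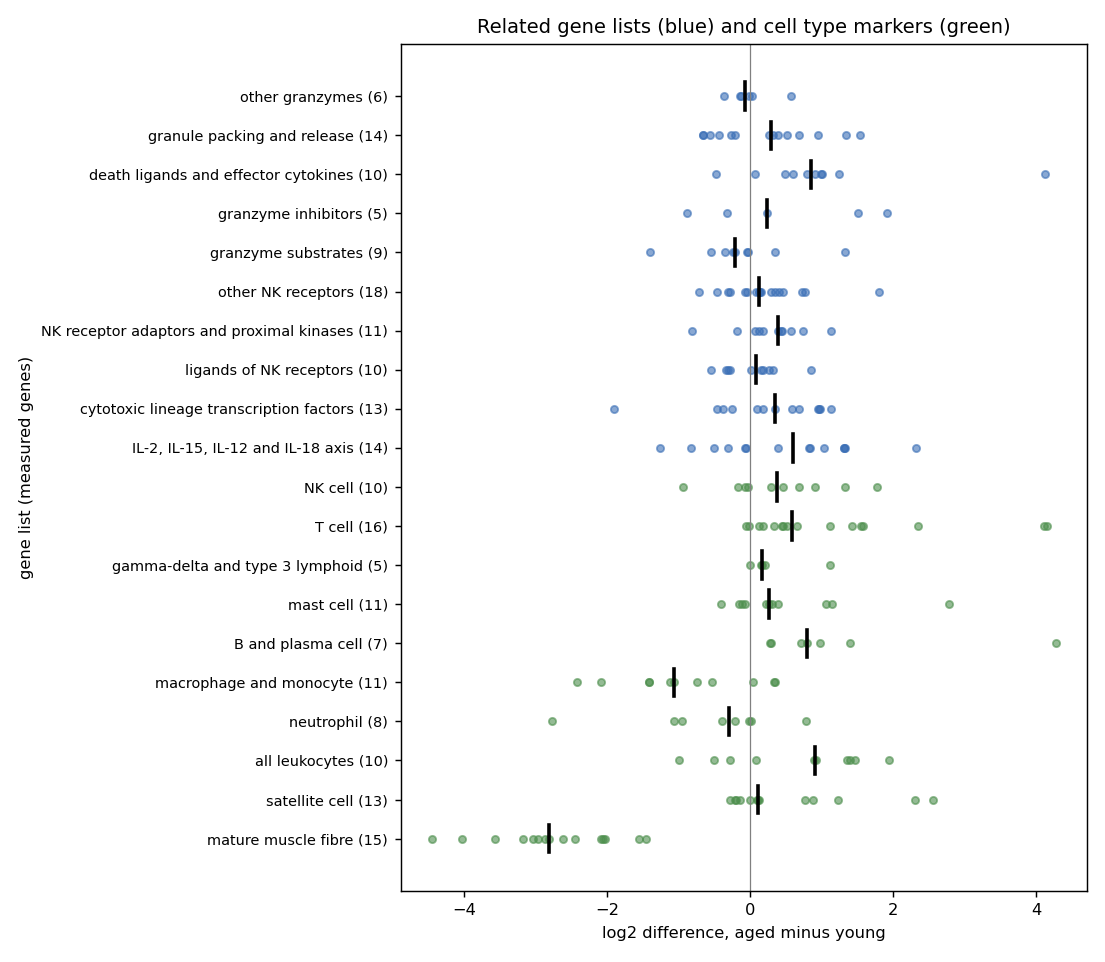
Difference between aged and young cells (log2, x axis) for the measured genes of 10 related lists (blue) and 10 lists of cell type markers (green), 1 point per gene, with a black bar at each list's median. The T cell markers reach 4.15 and all 15 fibre markers lie at or below -1.46, while the other granzymes lie between -0.36 and 0.57.

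Markers of the cells that could carry these transcripts differed by cell type, with most T cell markers at higher values in aged pools and NK cell markers split. NK cell markers, 10 measured of 15 listed, were higher in 6 cases, where 53.8% of all genes were higher, and their median of 0.37 turned to -0.38 without aged 1 and was 0.66 without aged 2. Array medians of this list were -0.10 and -0.25 in young and 0.60 and -0.14 in aged pools. The kinase gene Txk stood at 1.77 ± 0.37 (adjusted p = 0.211) and the lipid receptor gene S1pr5 at -0.93 ± 1.02. Of 16 T cell markers 14 were higher, and their median was 0.58 (1.40 without young 1, 0.40 without young 2), with array medians of -0.09 and -0.57 in young and 0.50 and 0.30 in aged pools. Cd3g (4.15 ± 0.47, adjusted p = 0.0998) and Cd3d (4.11 ± 0.50, adjusted p = 0.111), subunits of the T cell receptor complex, and the costimulatory receptor Cd28 (2.35 ± 0.60) stood beside Cd8a (1.43 ± 0.50) and Cd3e, which was at only 0.34 ± 0.37. Markers of all leukocytes went both ways, with 7 of 10 higher and 3 lower. Both aged pools lay above both young pools in 6 of them and below in 3, against 19.9% and 16.9% of all genes. Ptprc, the gene of CD45 on all leukocytes, was the highest at 1.94 ± 0.58 (adjusted p = 0.390). The 3 lower were Fermt3 (-1.001 ± 0.385, adjusted p = 0.525), Coro1a (-0.51 ± 0.38) and Laptm5 (-0.28 ± 0.37). The part of these cell types in the values of the cytotoxic genes was not tested.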

How the data were processed

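RNA of 4 pools of syndecan-4-sorted satellite cells went through 2 rounds of linear T7 amplification and biotin labelling for Affymetrix arrays, per the labels' protocols. The authors deposited 1 table of values for 45101 probe sets, taken here as log2 values; how background, probe summary and normalization were handled is not stated in the labels. Values are centred so that the median of a probe set is 0 within 5e-07, and the number of arrays limits the precision. Names came from the platform annotation and were brought up to GRCm38.p6 through Entrez ID for 34741 of 34945 probe sets with 1 symbol. Those with several symbols (932) or none (9160) and 64 controls were left out of gene tests. Probe sets of 1 gene were averaged.

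The ages were contrasted in R 4.3.3 by limma 3.58.1 (eBayes on lmFit without trend, two-sided, Benjamini-Hochberg over all 18193 genes, threshold 0.05), a pipeline tested on simulated data. Each SE comes from that fit, with 3.56 prior and 2 residual degrees of freedom, and that of single probe sets from the same fit over 45037 probe sets. p-values set a difference against the spread between 2 pools per age, moderated by that spread over all genes. Members and gene lists were chosen with earlier results of these data known. All members are named, with up to 4 genes per list with the smallest unadjusted p and a few fixed markers. The 5 genes nearest to the members with the most negative and most positive difference are named too. Not every gene within this rule is named, and Klrc1, Cd69, Coro1a, Laptm5, Il15 and Il18 are among those named outside it. Alternatives were quantile normalization, other gene values, robust eBayes, a test per probe set, the replicate number as a block, and leaving out each array. Figures were drawn with matplotlib 3.10.9.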

Additional observations from a re-analysis of the deposited data

How the results depend on the processing

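With 1 array left out the difference of Gzma ran from -4.50 to -3.31, Gzmb from 0.59 to 0.75, Gzmk from -0.54 to 0.49, Gzmm from 0.30 to 0.98, Prf1 from -0.48 to -0.28, Nkg7 from 0.30 to 1.04, Klrd1 from 0.58 to 3.48, Klrk1 from 0.15 to 1.01, Ncr1 from -0.38 to -0.00037 and Eomes from 0.53 to 1.37. In such a fit the lone pool of an age is assumed to vary like the other age. With the probe set of the largest SD, Prf1 stood at -0.22. Under quantile normalization the 10 differences kept their sign, with Gzma at -3.91 and Klrd1 at 1.92.

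Genes at an unadjusted p under 0.05 ranged from 281 to 668 higher and from 823 to 1219 lower under every alternative at the gene level, and were 1165 higher and 2121 lower with 1 test per probe set. The lowest number higher came without young replicate 2. No alternative run gave a gene at an adjusted p under 0.05. The related pathway genes at an unadjusted p under 0.05 ranged from 5 to 9 higher and from 2 to 4 lower with 1 array left out. With the replicate block there were 549 genes higher and 1219 lower, and 9 related genes higher and 2 lower. The pool numbers are not said to mark a shared batch, and the deviations of same-numbered pools correlated at 0.138 over genes, so the numbers were not treated as pairs. Centred values hold no measure of signal over background, so dim probe sets could not be set apart.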

Other observations

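Inhibitors and substrates of granzymes lay on both sides of 0. Of 5 inhibitor genes 3 were higher and 2 lower in aged cells, with a median of 0.23 (0.11 without aged replicate 2 or young replicate 1). Serpinb1a, which inhibits neutrophil proteases, stood at 1.91 ± 0.59 (adjusted p = 0.401 with limma), Serpinb6b, an inhibitor of granzyme A in the mouse, at 1.51 ± 0.55 (adjusted p = 0.488), and Serpinb9, the inhibitor of granzyme B, at -0.33 ± 0.49. Of 9 substrate genes 2 were higher and 7 lower, with a median of -0.22, which turned to 0.05 with young replicate 2 left out and to 0.04 with aged replicate 1 left out, and was -0.49 without young replicate 1. The chromatin protein gene Hmgb2 stood at 1.32 ± 0.43 (adjusted p = 0.436) and the complex I subunit gene Ndufs3 at -1.40 ± 0.44 (adjusted p = 0.414), both cleaved by granzyme A.

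Other leukocyte markers differed in direction. Macrophage and monocyte markers were lower in 8 of 11 cases (median -1.07, -0.60 without aged replicate 1), with Adgre1 at -2.42 ± 0.36 (adjusted p = 0.146). Neutrophil markers were lower in 6 of 8 cases (median -0.30, 0.26 without young replicate 2, -0.10 without aged replicate 1, -0.53 without young replicate 1 and -0.66 without aged replicate 2). Among them S100a8 stood at -2.77 ± 0.50 (adjusted p = 0.170), and Mpo went the other way at 0.78 ± 0.36 (adjusted p = 0.623). B and plasma cell markers were higher in 7 of 7 cases (median 0.79), with Jchain at 4.28 ± 0.58 (adjusted p = 0.120). Mast cell markers were higher in 7 of 11 cases (median 0.27, -0.03 without aged replicate 2), where the protease gene Mcpt2 stood at 3.62 in aged 1 and 0.56 in aged 2, a high value on the same array as Klrd1 and Klra2. Markers of gamma-delta T cells and type 3 lymphoid cells were higher in 4 of 5 genes (median 0.16, -0.29 without aged replicate 2, -0.03 without young replicate 1, 0.35 without young replicate 2 and 0.70 without aged replicate 1).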
